A study of Homo sapiens with 2 samples.

Results

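The tetraspanin genes and the small L6 family that shares their membrane topology were compared between a gefitinib-resistant lung adenocarcinoma line and its parental line. The members were the rows of the deposited table with a TSPAN or TM4SF symbol followed by a number, together with CD9, CD37, CD53, CD63, CD81, CD82, CD151, UPK1A and UPK1B. This gave 37 genes of 20985, of which 31 were tetraspanins and 6 belonged to the L6 family. The resistant cells were HCC827 ZDR3, obtained by keeping HCC827 cells in gefitinib, an inhibitor of the EGFR tyrosine kinase, first at 10 nM for 1 month and then at concentrations raised 3-fold each month up to 1 µM, after which 3 colonies were taken. The parental cells were HCC827, an established human lung adenocarcinoma line with an activating EGFR mutation, which both lines derive from. The labels do not say whether ZDR3 is a single colony or whether gefitinib was present at harvest. Polyadenylated RNA of each line was sequenced once.

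No test was possible with single libraries and no p-value is given, the spread between cultures is unknown, and every difference below is between these 2 libraries. The resistant library held 243549875 gene reads and the parental library 257192599. Levels are given in normalised reads, which were not divided by gene length. In this unit 1 stands for 138 reads in the resistant and 143 reads in the parental library. The log2 ratio is that of resistant over parental after 1 was added to both levels. Plain ratios carry exact 95% binomial (Clopper-Pearson) intervals that cover counting error only. Where genes are compared with each other, the level per length is used, in RPKM, reads per kilobase of exon scaled to the library's gene reads. Of 11 lung and epithelial markers 9 reached a level of 1 in at least 1 library, and KRT8, KRT18, KRT19 and EPCAM were found in both libraries, while the surfactant gene SFTPC had 0 reads in both and SFTPB stayed below 1.

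Tetraspanins are small membrane proteins that cross the membrane several times and assemble with integrins, proteases, growth factor receptors and one another into lateral microdomains. They steer where their partners are delivered and how they are shed, and CD9, CD63 and CD81 are widely used as markers of extracellular vesicles. In epithelia and carcinomas single members have been tied to adhesion, migration and receptor turnover. CD82, for one, is known as a metastasis suppressor that limits EGFR signalling. The L6 proteins resemble tetraspanins in topology but are a separate family.

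Of the 37 genes 26 reached a level of 1 in either library and are called expressed. Among these 3 were higher in the resistant library by 2-fold or more (TSPAN9, TSPAN33 and TSPAN10) and 7 lower by 2-fold or more (TSPAN8, TSPAN1, TSPAN15, TSPAN2, CD82, TSPAN13 and TSPAN18). The share of higher genes, 11.5%, lay near the 10.6% of all 13777 expressed genes, whereas the share of lower genes was 26.9% against 9.68%. The remaining 16 genes lay within 2-fold. The median log2 ratio was -0.16 over the expressed members and -0.032 over all expressed genes. All 26 reached the minimum in the parental library and 24 in the resistant one. TSPAN2 and TSPAN18 passed through the parental level alone, so a low resistant level was fixed for them by the filter. The 5 most abundant members per length made up 81.0% of the summed member level in resistant and 76.9% in parental cells, so the genes with the largest differences were minor parts of the pool. All member reads together were 0.390% of gene reads in resistant and 0.366% in parental cells.

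**Figure D1:**
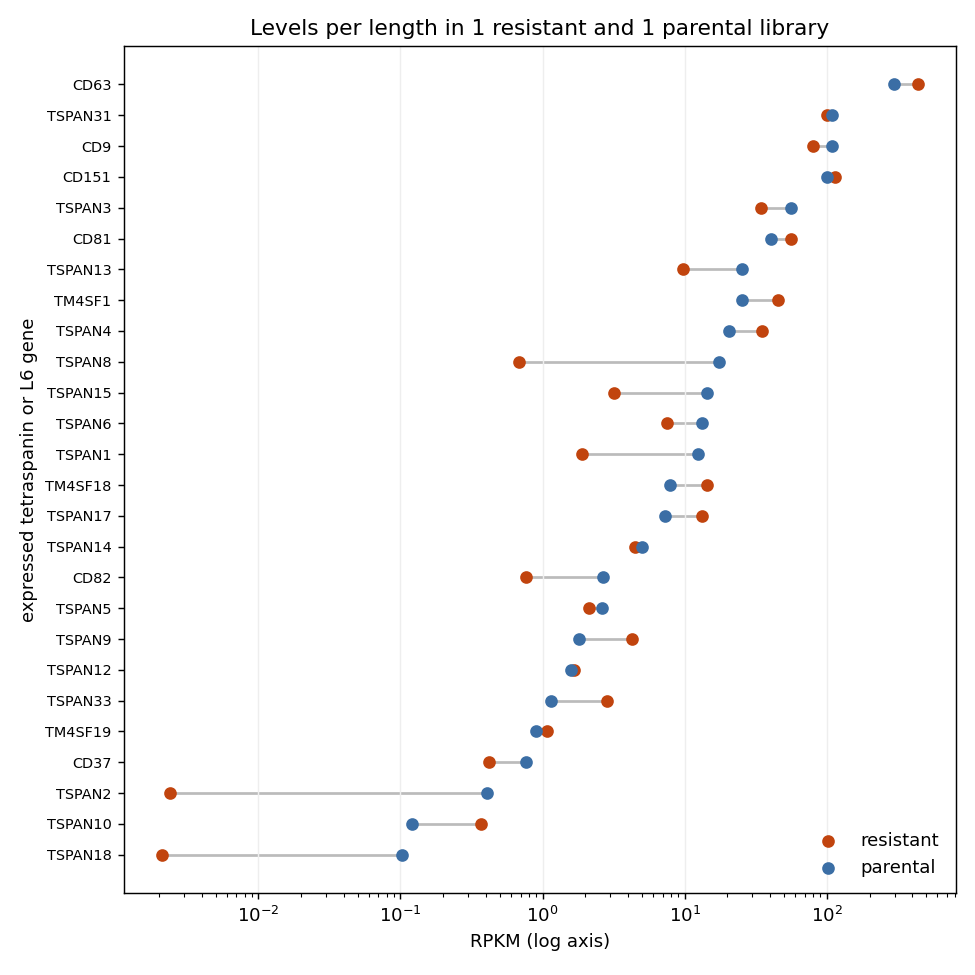
Level per length of each of the 26 expressed genes (log axis, RPKM) in the resistant (orange) and the parental (blue) library, 1 library each, ordered by the parental level. CD63 is the most abundant in both libraries (437 in resistant and 298 in parental cells), and the widest gaps with more than 100 reads in each library are those of TSPAN8 and TSPAN1.

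The lowest log2 ratio, with 1 added to both levels, was that of TSPAN8, also known as CO-029, a tetraspanin of gastrointestinal and other carcinomas that associates with EPCAM and claudin-7. It stood at 3.03 in resistant cells (417 reads) and 79.5 in parental cells (11364 reads), a log2 ratio of -4.32. The plain ratio of parental over resistant was 26.2, with a counting interval of 23.8 to 29.01. In parental cells TSPAN8 was the tenth-ranked member by level per length, and it stood above 83.2% of all expressed genes, against 17.8% in resistant cells. The 20 expressed genes on each side of it had a median log2 ratio of 0.16, and 0 of these 40 were lower by 2-fold or more. As RNA was taken from whole cultures, fewer cells with the transcript and less of it per cell cannot be told apart here or in any other member.

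TSPAN1, another tetraspanin found mostly in epithelia and carcinomas, was at 7.92 in resistant and 52.6 in parental cells, a log2 ratio of -2.59. Its ratio of parental over resistant was 6.65 (6.24 to 7.09). The expressed gene next to it on one side, PIK3R3, had a log2 ratio of -3.09, and the one on the other side, POMGNT1, had 0.35. TSPAN13, also called NET-6, was at 38.5 in resistant and 102 in parental cells (-1.38). It lies between BZW2, with a log2 ratio of -0.94, and the mucin-folding isomerase gene AGR2, which had -8.40.

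TSPAN6, reported as an inhibitor of RIG-I-like receptor signalling in human cell lines, was at 60.5 in resistant and 107 in parental cells (-0.82). TSPAN3, among the 5 most abundant members per length in parental cells, was at 519 in resistant and 860.2 in parental cells (-0.73). Both lay within 2-fold, and both were lower in resistant cells by more than counting error. Epithelial markers were also lower in resistant cells. Of the 9 expressed lung and epithelial markers 8, or 88.9%, were lower by 2-fold or more and 0 higher by that much. Over all expressed genes the shares were 9.68% lower and 10.6% higher. The median log2 ratio of these 9 markers was -2.00. The summed level per length of the list was 732 in resistant and 1889.9 in parental cells, with SFTPC at 0 in both. The part of this in the tetraspanin differences was not tested.

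The start regions of the 3 members with the lowest log2 ratios and of 2 of the 3 that were higher are shown, so that their sequence can be read. No window was found for TSPAN9, which had the highest log2 ratio (1.18). They come from RefSeq (GRCh38.p14), run from 250 bases before to 50 bases after the first start listed for each gene, and are written along the gene's own strand. Capitals mark the 2 motifs that were searched, TGANTCA, which the AP-1 factors of JUN bind, and CACCTG, which ZEB and SNAI repressors bind. Both strands were read, and the 2 motifs do not overlap in these windows. The windows of TSPAN8 (chr12:71157950-71158249 on the minus strand), TSPAN1 (chr1:46174837-46175136 on the plus strand) and TSPAN15 (chr10:69451215-69451514 on the plus strand) hold neither motif. That of TSPAN33 (chr7:129144457-129144756 on the plus strand) holds 1 CACCTG, read on the opposite strand and beginning 125 bases before the start. That of TSPAN10 (chr17:81642055-81642354 on the plus strand) holds 2 TGANTCA, beginning 183 and 76 bases before the start, and 1 CACCTG directly after the first of them.
TSPAN8: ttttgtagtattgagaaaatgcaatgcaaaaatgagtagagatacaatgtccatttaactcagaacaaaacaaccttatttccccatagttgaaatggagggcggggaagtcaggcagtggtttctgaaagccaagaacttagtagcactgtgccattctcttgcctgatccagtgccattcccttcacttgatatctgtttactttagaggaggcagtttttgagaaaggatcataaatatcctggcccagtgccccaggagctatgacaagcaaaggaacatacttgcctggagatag
TSPAN1: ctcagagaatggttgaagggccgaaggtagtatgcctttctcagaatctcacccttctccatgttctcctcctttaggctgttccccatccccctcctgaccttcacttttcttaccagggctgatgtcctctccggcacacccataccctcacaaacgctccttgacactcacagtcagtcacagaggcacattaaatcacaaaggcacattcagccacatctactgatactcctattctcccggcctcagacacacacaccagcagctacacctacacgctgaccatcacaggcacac
TSPAN15: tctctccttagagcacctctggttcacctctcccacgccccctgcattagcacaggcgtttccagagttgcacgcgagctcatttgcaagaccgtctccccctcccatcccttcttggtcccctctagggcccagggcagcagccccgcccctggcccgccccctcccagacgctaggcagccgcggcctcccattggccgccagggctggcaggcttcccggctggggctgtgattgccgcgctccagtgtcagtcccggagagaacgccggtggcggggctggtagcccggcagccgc
TSPAN33: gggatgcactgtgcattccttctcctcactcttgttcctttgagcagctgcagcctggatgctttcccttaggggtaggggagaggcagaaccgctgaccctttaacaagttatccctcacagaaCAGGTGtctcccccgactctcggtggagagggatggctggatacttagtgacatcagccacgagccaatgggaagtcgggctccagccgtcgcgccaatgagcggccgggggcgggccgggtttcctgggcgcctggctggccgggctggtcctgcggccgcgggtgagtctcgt
TSPAN10: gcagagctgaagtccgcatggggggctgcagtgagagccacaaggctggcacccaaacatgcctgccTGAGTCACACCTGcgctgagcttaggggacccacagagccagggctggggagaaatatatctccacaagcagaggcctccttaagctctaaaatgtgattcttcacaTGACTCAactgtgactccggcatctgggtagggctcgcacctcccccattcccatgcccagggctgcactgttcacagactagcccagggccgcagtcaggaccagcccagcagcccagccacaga

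The GC content of these windows was 42.3% for TSPAN8, 52.0% for TSPAN1, 69.0% for TSPAN15, 62.7% for TSPAN33 and 59.7% for TSPAN10, against a median of 58.7% over all 35116 RefSeq windows. The number of CG dinucleotides was 1, 5, 20, 18 and 5 in the same order, against a median of 14. Windows were found for 29 of the 37 genes. Of the 38 windows of expressed members 3, or 7.89%, held TGANTCA, against 7.71% of all windows. The CACCTG motif was in 8 of the 38, or 21.1%, against 20.6% of all windows. Both shares lay near those of all windows, and the several windows of 1 gene overlap in part.

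The TspanC8 subfamily, whose members carry the metalloprotease ADAM10 out of the endoplasmic reticulum and shape which substrates it cuts, differed more in composition than in sum. TSPAN15, which favours cleavage of N-cadherin by ADAM10, was at 14.8 in resistant and 69.0 in parental cells, with a log2 ratio of -2.15 and 4.66 times the resistant level in parental cells (4.45 to 4.89). TSPAN17 was at 122 in resistant and 68.8 in parental cells (0.82). TSPAN33, which docks ADAM10 at adherens junctions, was at 13.9 in resistant and 5.63 in parental cells (1.17), with a plain ratio of 2.47 (2.27 to 2.69). Of the 6 genes of the subfamily 1, or 16.7%, was lower by 2-fold or more (TSPAN15). By the same measure 2, or 33.3%, were higher (TSPAN33 and TSPAN10). The shares over all expressed genes were 9.68% lower and 10.6% higher.

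TSPAN10, the least abundant TspanC8 gene per length, was at 3.11 in resistant cells (428 reads) and 1.04 in parental cells (148 reads), with a log2 ratio of 1.01 and a plain ratio of 3.002 (2.48 to 3.64). TSPAN10 shares 36 exon bases with NPLOC4, a gene on the opposite strand with levels of 175 in resistant and 135 in parental cells. Since the strand setting of the counts is not given in the sources used here, reads from such overlaps cannot be assigned to 1 of the genes. TSPAN14 was at 143 in resistant and 161 in parental cells (-0.17). TSPAN5, which like TSPAN14 is known to promote Notch activation through ADAM10, was at 28.0 in resistant and 34.8 in parental cells (-0.30). Both of these Notch-linked members stayed within 2-fold.

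Per length, TSPAN15 was the highest TspanC8 gene in parental cells and TSPAN17 in resistant cells. This order and the shares below rest on exon lengths merged over transcripts, 17888 bases for TSPAN14, 2646 for TSPAN15 and 5215 for TSPAN17. Before division by length TSPAN14 had the highest level of the subfamily in both libraries, 143 in resistant and 161 in parental cells. TSPAN17 made up 50.3% of the summed TspanC8 level in resistant and 23.9% in parental cells. TSPAN15 made up 12.0% in resistant and 47.2% in parental cells. The share of TSPAN33 was 10.9% in resistant and 3.71% in parental cells. The shares of TSPAN14 (17.2% in resistant and 16.3% in parental cells) and TSPAN5 (8.12% in resistant and 8.49% in parental cells) were alike in both libraries. The summed level per length of the subfamily was 26.2 in resistant and 30.7 in parental cells. ADAM10 itself was at 133 in resistant and 184 in parental cells (-0.46).

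**Figure D2:**
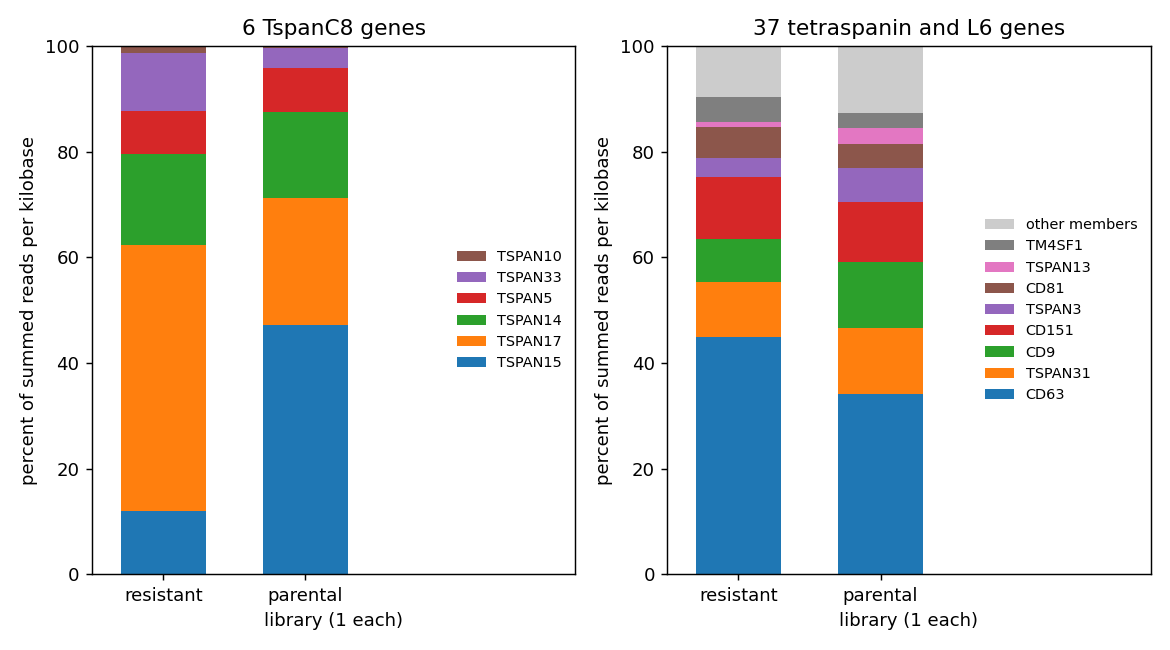
Stacked bars of the percent that each gene contributed to the summed reads per kilobase of exon, for the 6 TspanC8 genes (left panel) and for all 37 genes (right panel), in the resistant and the parental library. TSPAN17 holds 50.3% of the TspanC8 pool in resistant cells where TSPAN15 holds 47.2% in parental cells, and CD63 holds 45.0% of the whole pool in resistant and 34.1% in parental cells. The shares depend on the exon lengths used, which are merged over transcripts.

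Transcripts of known ADAM10 substrates went in both directions. Of 15 expressed substrate genes 3, or 20%, were higher and 6, or 40%, lower by 2-fold or more, against 10.6% and 9.68% of all expressed genes, and the median log2 ratio was -0.67. CDH2, the gene of N-cadherin, was at 58.4 in resistant and 0.672 in parental cells (5.15), so that the N-cadherin transcript was high in the library in which TSPAN15 was low. CDH1, the gene of E-cadherin, had a log2 ratio of -3.11. The receptor gene NOTCH3 was at 3.85 in resistant and 128 in parental cells (-4.73), while the chemokine gene CXCL16 was at 18.7 in resistant and 94.6 in parental cells (-2.28). The growth factor gene EGF was at 0.291 in resistant and 6.16 in parental cells (-2.47). CDH2 passed the minimum through the resistant level alone and EGF through the parental level alone. A low level in the other library was thus fixed for both by the filter, and both are in the counts above. ERBB2, whose ectodomain ADAM10 sheds, had a log2 ratio of -1.38 and NOTCH2 one of -1.02. IL6R (1.24) and APP, at 9815 in resistant and 4805 in parental cells (1.03), were higher. The summed level per length of the list was 1164 in resistant and 882 in parental cells, opposite in direction to its median log2 ratio. APP alone accounted for 878 of it in resistant and 423 in parental cells.

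Among the widely expressed CD tetraspanins 4 of 5 lay within 2-fold and CD82 was lower. CD82 was at 5.52 in resistant cells (760 reads) and 19.5 in parental cells (2785 reads), with a log2 ratio of -1.65 and a parental level 3.53 times the resistant one (3.26 to 3.83). The 40 expressed genes around CD82 had a median of 0.11. Its next member on the chromosome, TSPAN18, known from endothelial cells as a regulator of the calcium channel ORAI1, was at 0.0218 in resistant cells (3 reads) and 1.08 in parental cells (154 reads). The ratio of parental over resistant for TSPAN18 was 49.4 with an interval of 16.6 to 242, and the log2 ratio with the added unit was -1.02. TSPAN18 shares 74 exon bases with TP53I11 on the opposite strand, which was at 33.1 in resistant and 14.0 in parental cells.

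CD63, the tetraspanin of late endosomes and lysosomes, was the most abundant member per length in both libraries. Its level was 2035 in resistant and 1411 in parental cells, with a log2 ratio of 0.53 and a plain ratio of 1.44 (1.43 to 1.45). CD81, an entry receptor of hepatitis C virus, was at 739 in resistant and 538 in parental cells (0.46). CD151, which binds the laminin-binding integrins tightly, was at 792 in resistant and 709 in parental cells (0.16). CD9, which associates with the heparin-binding growth factor HBEGF, was at 586 in resistant and 812 in parental cells (-0.47). The vesicle markers thus did not share a direction, with CD63 and CD81 higher and CD9 lower, each by less than 2-fold.

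Ordered by level per length, the leading members of resistant cells were CD63 at 437, CD151 at 114, TSPAN31 at 100.2, CD9 at 79.5 and CD81 at 56.4. In parental cells the order was CD63 at 298, TSPAN31 at 109.3, CD9 at 108.2, CD151 at 99.9 and TSPAN3 at 56.2. The counting intervals of TSPAN31 and CD9 overlapped in parental cells, so these neighbours in the order did not differ beyond counting error. TSPAN31, first described as the sarcoma amplified sequence, was at 955 in resistant and 1059 in parental cells (-0.15). It lies against CDK4 on the opposite strand and shares 25.4% of its exon length with that gene, which was at 6327 in resistant and 6391 in parental cells, so the reads of the 2 genes cannot be told apart there.

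Within the L6 family the expressed genes were all on the higher side, and none reached 2-fold. TM4SF1, the L6 antigen of carcinomas, was at 295 in resistant and 168 in parental cells (0.80), with a plain ratio of 1.75 (1.72 to 1.78). TM4SF18 was at 113 in resistant and 63.8 in parental cells (0.82), with a plain ratio of 1.78 (1.73 to 1.82). These 2 genes are next to each other on chromosome 3, their intervals overlap, and they kept the same proportion, with TM4SF1 at 74.6% of the summed L6 level per length in resistant and 74.2% in parental cells. WWTR1, the gene of the YAP-related coactivator TAZ, is the next expressed gene beyond TM4SF1 and had a log2 ratio of 1.03, while CP, the ceruloplasmin gene on the other side of TM4SF18, had -4.67.

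TM4SF19 was at 3.60 in resistant and 3.09 in parental cells (0.17), with a plain ratio of 1.17 (1.02 to 1.33), and it shares 28.4% of its exon length with an antisense gene at a level below 1. TM4SF4, which lies between TM4SF1 and WWTR1, had 35 reads in resistant and 27 reads in parental cells and was below the minimum in both. TM4SF5 had 12 reads in resistant cells and 1 read in parental cells, a ratio of 12.5 with an interval of 1.84 to 533. For TM4SF20 there were 2 reads in resistant and 0 in parental cells, which is below the floor of 3 reads.

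Of the other TSPAN genes, TSPAN9, a platelet tetraspanin, was higher at 52.2 in resistant and 22.5 in parental cells (1.18), with a plain ratio of 2.32 (2.22 to 2.42). Its flanking expressed genes were TEAD4 with a log2 ratio of 0.79 and EFCAB4B with 3.21. TSPAN4, which is needed for the formation of migrasomes, the vesicles that migrating cells leave on their retraction fibres, was at 362 in resistant and 215 in parental cells (0.75), with a plain ratio of 1.69 (1.67 to 1.71). TSPAN4 is a close neighbour of CD151, and the gene between them, POLR2L, had a log2 ratio of 0.33. TSPAN4 was ranked above TSPAN3 per length in resistant cells and below it in parental cells.

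TSPAN12, a co-receptor that strengthens Norrin signalling through FZD4, did not differ beyond counting error, at 9.98 in resistant and 9.67 in parental cells (0.041; plain ratio 1.03, interval 0.957 to 1.11). FZD4 was at 7.96 in resistant and 4.76 in parental cells (0.64), and its co-receptor LRP5 at 104 in resistant and 195 in parental cells (-0.89). The ligand gene NDP had 29 reads in resistant and 2 reads in parental cells. TSPAN2, known from rodent oligodendrocytes, was nearly lost from the resistant library, with 2 reads against 356 reads in parental cells. Its levels were 0.0145 in resistant and 2.49 in parental cells (-1.78), and the parental level was 171 times the resistant one, with an interval of 47.1 to 1421.

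Of the tetraspanins typical of blood cells and bladder, CD37 alone reached the minimum. CD37, a tetraspanin of B cells, was at 3.10 in resistant and 5.71 in parental cells (-0.71), but it shares 7.67% of its exon length with TEAD2 on the opposite strand, which was at 22.6 in resistant and 29.9 in parental cells. CD53, a marker of leukocytes, had 12 reads in resistant and 10 reads in parental cells, and TSPAN32, a tetraspanin of blood cells, had 9 in resistant and 19 in parental cells. Of the 10 leukocyte markers 4 were expressed. CD68 was at 320 in resistant and 155 in parental cells (1.04), and CD79A had 141 reads in resistant and 41 in parental cells. CSF1R had 105 reads in resistant and 261 in parental cells, and CD14 had 28 in resistant and 268 in parental cells. CD3E and MS4A1 had 0 reads in both libraries, and PTPRC, the pan-leukocyte gene, had 32 reads in resistant and 0 in parental cells. The summed level per length of that list was 83.2 in resistant and 40.3 in parental cells, which was mostly the lysosomal gene CD68.

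The uroplakin tetraspanins of the bladder lining were below the minimum, with 13 reads in resistant and 4 reads in parental cells for UPK1A, and 9 in resistant and 8 in parental cells for UPK1B. Their partner UPK3B was at 2.35 in resistant and 10.5 in parental cells (-1.78). TSPAN16 had 47 reads in resistant and 0 in parental cells, which puts it at least 16.3-fold higher against a floor of 3 parental reads, with a counting interval of the plain ratio that begins at 12.7. TSPAN19 had 12 in resistant and 0 in parental cells, at least 4.15-fold higher against the same floor, with an interval that begins at 2.88. TSPAN11 had 68 reads in resistant and 72 in parental cells. The neuronal gene TSPAN7 had 0 reads in both, which allows a level of up to 0.0218 in resistant and 0.0210 in parental cells.

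**Figure D3:**
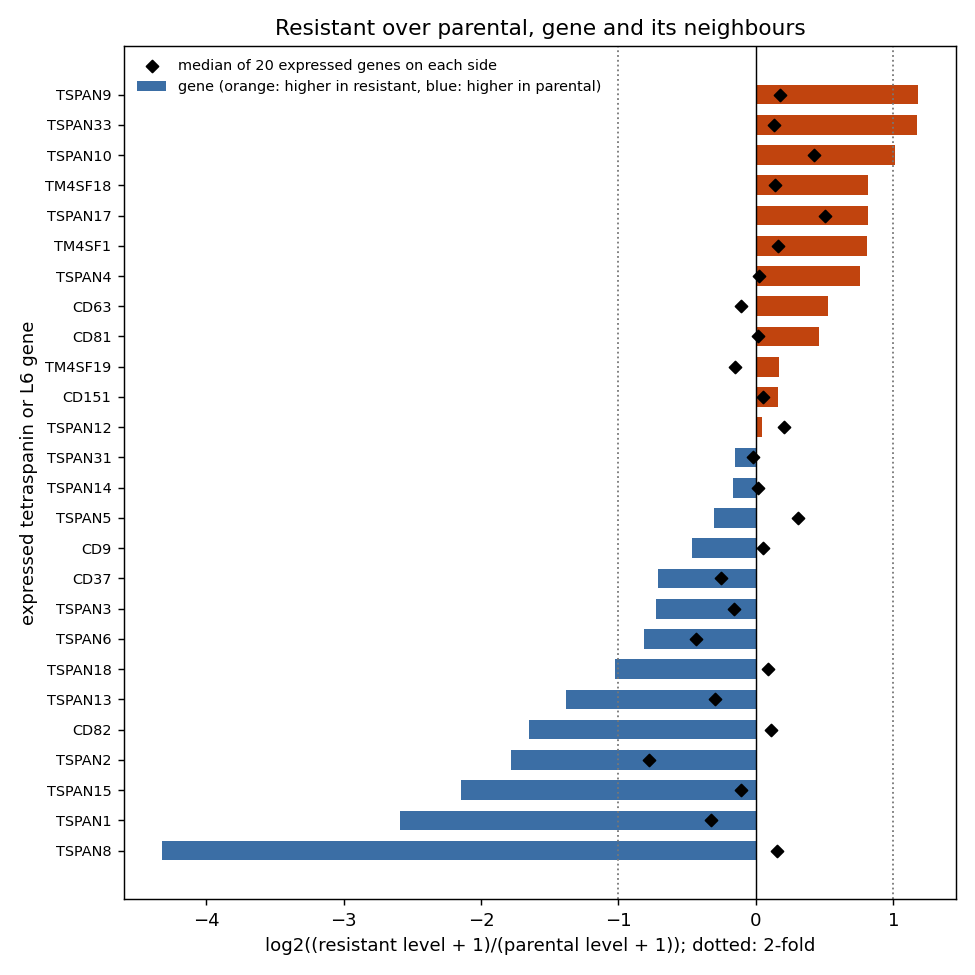
Bars give the log2 ratio of resistant over parental for each of the 26 expressed genes, orange where the resistant level is higher and blue where the parental level is higher, and diamonds the median log2 ratio of the flanking expressed genes, 20 per side (38 in all for TSPAN9). TSPAN8 reaches -4.32 where its neighbours have a median of 0.16, while the neighbours of TSPAN2 (-0.78) and TSPAN17 (0.50) are shifted in the direction of the gene.

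The value of each member was also set against those of the genes around it on its chromosome. TSPAN17 had neighbours with a median log2 ratio of 0.50, of which 9 of 40 were higher and 0 lower by 2-fold or more. After this median was subtracted, 0.32 of its 0.82 was left. TSPAN10 had neighbours with a median of 0.43 and was left with 0.59. For TSPAN6 the neighbours had a median of -0.43, and -0.38 of its -0.82 was left. TSPAN2 lay among neighbours with a median of -0.78 and was left with -1.003. For TSPAN8, TSPAN1, TSPAN15 and CD82 the value after subtraction was -4.48, -2.26, -2.04 and -1.76, so all 4 stayed more than 2-fold below the median of their neighbours. Among the 40 neighbours of each, 0, 6, 4 and 4 in the same order were themselves lower by 2-fold or more.

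Genes whose products bind tetraspanins or are found in their complexes were on both sides. Of 18 expressed partners 3, or 16.7%, were higher and 7, or 38.9%, lower by 2-fold or more, against 10.6% and 9.68% of all expressed genes, and the median log2 ratio was -0.62. CLDN7, the claudin that joins TSPAN8 and EPCAM in a complex, was at 20.1 in resistant and 641 in parental cells (-4.93). EPCAM was at 62.4 in resistant and 527 in parental cells (-3.06), so TSPAN8 and these partners were all lower in resistant cells. CD44, another listed partner, was at 2749 in resistant and 2627 in parental cells (0.065). ITGB4, the beta subunit of the hemidesmosome integrin that CD151 accompanies, had a log2 ratio of -3.82. ITGA5, a fibronectin receptor subunit, had one of -1.64. MMP14 was at 0.625 in resistant and 20.4 in parental cells (-3.72). As MMP14 passed through the parental level alone, a low resistant level was fixed for it by the filter.

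The integrin subunit ITGA3, the tightest known partner of CD151, was at 2950 in resistant and 1089 in parental cells (1.44). ITGB1 was at 4797 in resistant and 5779 in parental cells (-0.27), and ITGA6 at 534 in resistant and 546 in parental cells (-0.032). GGT1, a transpeptidase found in tetraspanin complexes, was at 1640 in resistant and 373 in parental cells (2.13), though its reads may be shared with near-identical genes of its family. HBEGF, the growth factor that CD9 accompanies, was at 6.94 in resistant and 2.35 in parental cells (1.24). The immunoglobulin partners of CD9 and CD81 were lower by less than 2-fold, PTGFRN at 63.2 in resistant and 113 in parental cells (-0.82) and IGSF8 at 36.1 in resistant and 42.7 in parental cells (-0.24).

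Genes that sort and release vesicles lay mostly within 2-fold. Of 20 expressed genes 0 were higher and 2, or 10.0%, lower by 2-fold or more, against 10.6% and 9.68% of all expressed genes, so the lower share was that of the background. Their median log2 ratio was -0.34. These 2 were the syndecan gene SDC1, at 131 in resistant and 299 in parental cells (-1.18), and RAB27B, a GTPase of vesicle docking, at 11.5 in resistant and 24.7 in parental cells (-1.04). SDCBP, the gene of syntenin, which binds the tail of CD63, was at 863 in resistant and 1403 in parental cells (-0.70), opposite in direction to CD63. The lysosomal gene LAMP1 had a log2 ratio of -0.76, VPS4B one of -0.54 and HGS, an ESCRT subunit, one of 0.64.

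**Figure D4:**
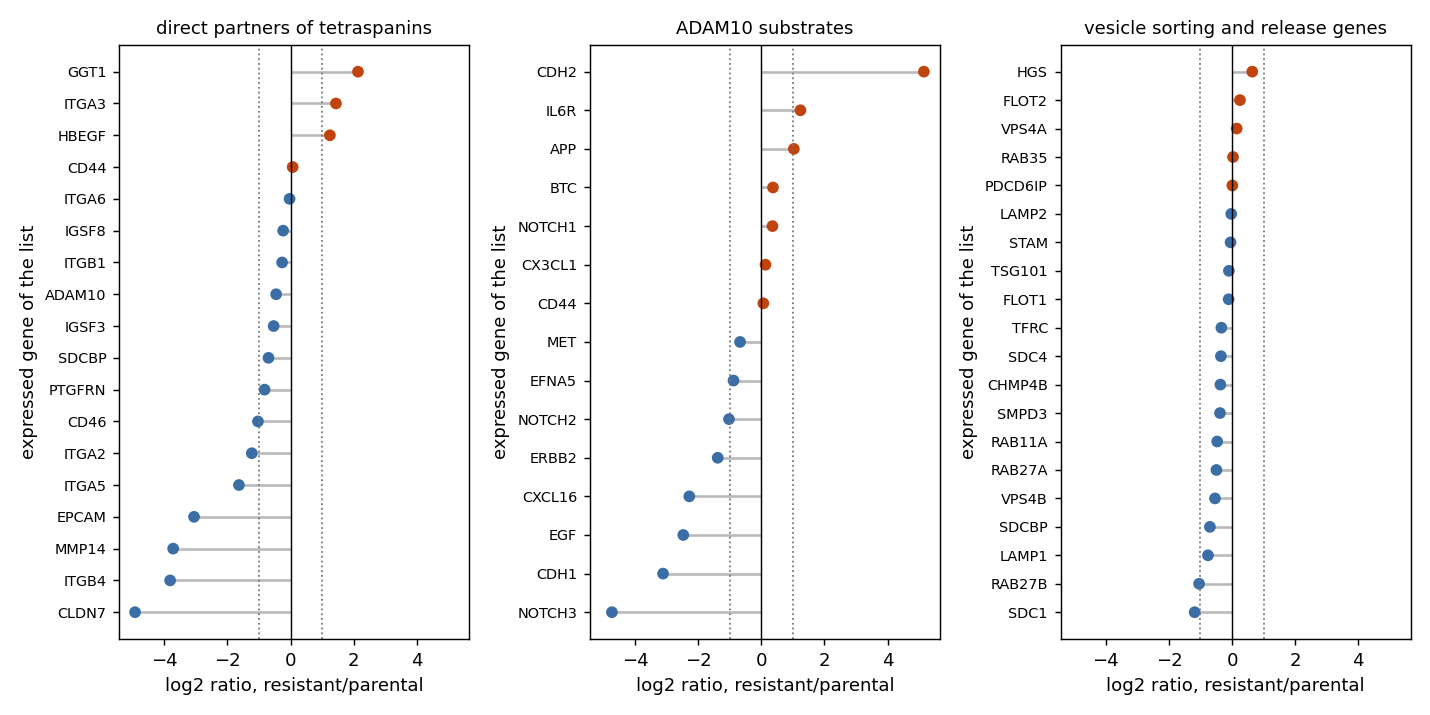
Log2 ratio of resistant over parental for the expressed genes of 3 lists, with dotted lines at 2-fold. The lists are the partners of tetraspanins (left, titled direct partners), ADAM10 substrates (middle) and vesicle sorting and release genes (right). CLDN7 (-4.93) and NOTCH3 (-4.73) are the lowest and CDH2 (5.15) the highest, while 18 of 20 vesicle genes lie between the dotted lines.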

How the data were processed

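RNA of 1 resistant and 1 parental culture was polyA selected and read on the Illumina HiSeq system, per the labels. The submitters' processing notes list TopHat. For its version, the counting tool, the genome build and the strand setting nothing is given in the sources used. The authors deposited 1 log2 value per gene and library. Although called RPKM, these values, once taken out of the log, were whole multiples of a step that was the same for all genes of a library, for 100% of genes with 1 to 100000 reads within 0.1 read, so they were not divided by length. Genes at the listed minimum (0.9 of a step) were taken as 0. The column ending in Prim was read as parental.

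Log2 ratios used a pseudocount of 1 (low genes are therefore understated) and a minimum level of 1 in at least 1 library. The design had assumed RPKM values and was applied to these levels as written. No count model was used. Among 18 members with 1000 or more reads in each library the widest interval reached 7.83% above the ratio, and without molecular identifiers a read is not an independent molecule. Exon length (merged over transcripts), gene order and overlaps came from GENCODE release 29 by Ensembl identifier, found for all 37 members, which need not be the authors' annotation. Python 3.11.15, numpy 2.4.6, pandas 2.3.3, scipy 1.17.1 and matplotlib 3.10.9 were used, and the counting of fold differences was checked on simulated reads.

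The members, the 17 gene lists (137 of 138 entries found) and the tests were chosen with earlier results of these data known. All expressed members are named, and of each partner list up to 6 expressed genes with the largest absolute log2 ratio. ITGA3, ITGA6, ITGB1, HBEGF, PTGFRN, IGSF8, CD44 and ADAM10 were named for their roles, after their values were seen, as were the flanking genes and the printed start regions. APP, IL6R and NOTCH2 were named as the other ADAM10 substrates that differed by 2-fold or more.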

Additional observations from a re-analysis of the deposited data

How the results depend on the processing

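With a pseudocount of 5 the members at least 2-fold higher numbered 1 in place of 3, since TSPAN33 and TSPAN10 lost the call, and TSPAN2 and TSPAN18 lost theirs among the lower ones. Under the other alternatives the higher members numbered 2 or 3 and the lower ones 5 to 7. TSPAN10 lost its call with the neighbour median subtracted, and TSPAN18 with the median of all genes subtracted. TSPAN10, TSPAN18 and TSPAN2 dropped out with a minimum level of 5 and with a minimum of 1 RPKM. TSPAN10 and TSPAN18 also dropped out without the members that share exon sequence with another gene. The median log2 ratio of the members was 0.022 without a minimum level, -0.14 with scaling by total reads, -0.13 with the median of all genes subtracted and -0.17 with the neighbour median subtracted. It was -0.054 with a minimum of 1 RPKM and -0.30 without the 7 expressed members that share exon sequence with another gene, both chosen after seeing the data. The no-minimum value adds genes with few reads and log2 ratios near 0 by construction. Subtracting the median of all genes (-0.032) moves every log2 ratio by the same amount. Scaling by total reads moves those of abundant genes by 0.025. For the remaining medians the cause was not tested. No called member changed direction under any pseudocount, scaling or neighbour setting. TSPAN12, which was not called, changed sign with the neighbour median subtracted (-0.16). No paired analysis was possible because each group holds 1 library, and for the same reason no library could be left out.

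Depth limits the ratios of genes with few reads, such as TSPAN2, TSPAN18 and TM4SF5, and does not limit those above 1000 reads, for which the missing spread between cultures is the limit.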

Other observations

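The retinal tetraspanin genes PRPH2 and ROM1, which the symbol rule leaves out, were read as well. PRPH2 had 0 reads in both libraries. ROM1 was at 1.72 in resistant cells (237 reads) and 1.57 in parental cells (224 reads), a log2 ratio of 0.084 with a plain ratio of 1.10 and a counting interval of 0.911 to 1.32.

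Marker lists of other cell types were expressed in part. Of 6 basal and squamous markers 4 were expressed, and TP63 had 0 reads in resistant and 2398 reads in parental cells. All 4 were at least 2-fold lower in resistant cells, against 9.68% of all expressed genes. However, all 4 passed through the parental level alone, so a low resistant level was fixed for them by the filter. Of 6 fibroblast markers COL1A1 alone was expressed, at 1.76 in resistant and 9.15 in parental cells (-1.88), and COL3A1 had 0 reads in both. Of the 5 endothelial markers found TIE1 alone was expressed, at 1.16 in resistant and 0.336 in parental cells (0.69). Below the minimum, VWF had 7 reads in resistant and 42 in parental cells and KDR had 4 in resistant and 21 in parental cells. The endothelial genes CDH5 and EMCN had at most 4 reads in either library.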
